A study of Homo sapiens with 24 samples.

Results

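The interferon-stimulated genes described here were 47 genes taken by symbol from a table of 15862 genes measured by RNA sequencing in 2 human lines of T-cell acute lymphoblastic leukaemia. All 47 listed symbols were found. They are the transcription factors IRF1, IRF7, IRF9 and STAT2, the RNA sensors and editors DDX58, IFIH1, DDX60, ADAR, EIF2AK2 and TRIM25, the ISG15 conjugation genes ISG15, USP18, HERC5 and HERC6, the IFIT, IFITM, OAS and MX antiviral families, 6 genes named IFI, the PARP9, DTX3L and PARP14 group, and 11 further effectors.

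The 24 libraries formed 5 groups. LOUCY cells were kept for 24 h in 250 nM JQ1 (n = 4), in 500 nM I-BET151 (n = 4) or in the solvent DMSO at 0.05% (n = 4), and LOUCY and JURKAT cells were also sequenced untreated (n = 6 each). JQ1 and I-BET151 are small molecules that displace BET proteins, readers of acetylated histones, from chromatin. LOUCY stands for the early T-cell precursor form of the disease, and JURKAT for a form with a more mature phenotype. Each type is represented by 1 line, so a difference between them is a difference between 2 lines. No label names an added interferon. Every group was spread evenly over 2 experiments, and nothing in the labels says whether replicates were separate cultures, so the p-values reflect only the scatter among these libraries, which may in part be technical.

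Interferons are secreted proteins that bind receptors on the same or neighbouring cells. Type I and type III interferons activate JAK1 and TYK2 kinases, which phosphorylate STAT proteins. Of these, STAT2 works with IRF9 in the complex ISGF3, which binds interferon-stimulated response elements (ISREs) before its target genes. Type II interferon acts through STAT dimers on gamma-activated sites (GAS). In T cells and other cells the products block viral entry, translation and replication, and several of them also carry or restrain the signal itself.

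Libraries held 4381134 to 7074198 reads in listed genes, recovered from the deposited RPKM values (reads scaled to gene length and library size). Of 6 T-lineage markers, 5 reached 1 RPKM in LOUCY and 6 in JURKAT. Their summed levels were 1003 to 1059 RPKM with JQ1, 795 to 1145 with I-BET151, 1556 to 1962 with DMSO, 1846 to 2395 in untreated LOUCY and 1394 to 1814 in JURKAT. Of 5 B-lineage markers, CD79A and CD79B reached 1 RPKM in every group and the others, MS4A1 and PAX5 among them, in none. The B-lineage sums were 243 to 336 RPKM with JQ1, 174 to 352 with I-BET151, 322 to 589 with DMSO, 418 to 692 in untreated LOUCY and 13.2 to 24.6 in JURKAT. The part of these marker genes in the results was not tested. Of the markers of other cells, 3 of 5 for monocytes and macrophages, 1 of 4 dendritic, 1 of 5 erythroid, 2 of 4 epithelial and 4 of 4 fibroblast genes were in the table. The sums of those present stayed at or under 2.49 RPKM, and the other markers were not analysed here. Under either inhibitor HEXIM1, a gene known to rise under BET inhibition, was at 53.1 RPKM with JQ1 and 50.8 with I-BET151, against 19.7 with DMSO. In 3 libraries expression, taken relative to the mean of the library's own group, fell steeply with gene GC content. These were I-BET151 experiment 2 replicate 1, DMSO experiment 2 replicate 1 and untreated LOUCY experiment 2 replicate 2. Their slopes were -0.313, -0.281 and -0.227 log2 units per 10 percentage points of GC, against -0.125 to 0.155 in the other libraries. Such slopes balance within a group, so a steep library raises those of its group, and a trend shared by a group does not show.

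To show the sequence through which the group is known to be read, 6 promoters were chosen from members that differed between the lines or under BET inhibition. Each stretch is the 250 bases before the gene's start in RefSeq (GRCh38.p14), written 5′ to 3′ on the gene's strand. Capitals mark the ISRE core, searched as TTTCNNTTTC on both strands, so that it may read as its reverse complement. Matches may overlap.
EPSTI1: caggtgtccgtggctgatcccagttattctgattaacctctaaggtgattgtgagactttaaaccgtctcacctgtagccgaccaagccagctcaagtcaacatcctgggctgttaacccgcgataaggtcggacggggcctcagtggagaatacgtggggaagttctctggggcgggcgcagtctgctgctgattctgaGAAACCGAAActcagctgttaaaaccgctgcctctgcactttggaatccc
OAS3: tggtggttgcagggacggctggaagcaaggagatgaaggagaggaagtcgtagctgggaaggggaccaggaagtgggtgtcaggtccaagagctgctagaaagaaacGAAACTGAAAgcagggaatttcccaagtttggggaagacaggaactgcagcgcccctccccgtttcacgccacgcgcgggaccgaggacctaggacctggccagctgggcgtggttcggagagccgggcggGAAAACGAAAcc
IFITM1: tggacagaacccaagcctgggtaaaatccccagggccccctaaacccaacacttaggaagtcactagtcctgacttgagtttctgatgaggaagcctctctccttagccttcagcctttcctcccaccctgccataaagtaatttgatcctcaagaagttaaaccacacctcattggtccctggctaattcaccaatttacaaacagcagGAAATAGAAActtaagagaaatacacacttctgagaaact
IFITM3: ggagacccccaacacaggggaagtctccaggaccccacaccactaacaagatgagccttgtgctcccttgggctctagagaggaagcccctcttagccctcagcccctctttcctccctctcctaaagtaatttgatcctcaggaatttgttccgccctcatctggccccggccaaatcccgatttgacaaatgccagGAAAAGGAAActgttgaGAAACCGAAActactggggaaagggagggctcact
HERC5: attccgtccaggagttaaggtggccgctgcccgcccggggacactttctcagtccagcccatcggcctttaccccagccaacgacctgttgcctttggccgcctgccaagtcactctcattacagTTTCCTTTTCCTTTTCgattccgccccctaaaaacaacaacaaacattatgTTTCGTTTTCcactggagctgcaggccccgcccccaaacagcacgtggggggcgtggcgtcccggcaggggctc
IFI6: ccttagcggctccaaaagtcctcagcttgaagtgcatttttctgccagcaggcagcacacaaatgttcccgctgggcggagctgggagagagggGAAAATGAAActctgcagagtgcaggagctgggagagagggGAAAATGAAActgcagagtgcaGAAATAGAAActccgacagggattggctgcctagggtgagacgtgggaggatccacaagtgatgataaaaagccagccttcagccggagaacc

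These stretches lie at chr13:42992242-42992491 on the minus strand, chr12:112938224-112938473 plus, chr11:313790-314039 plus, chr11:320861-321110 minus, chr4:88456869-88457118 plus and chr1:27672193-27672442 minus. EPSTI1, OAS3 and IFITM1 fell under both inhibitors, and HERC5 and IFI6 rose. IFITM1 and IFITM3 are close relatives that differed in opposite directions between the lines. A core was present in all 6 of these stretches. There was 1 match before EPSTI1 and IFITM1, 2 before OAS3 and IFITM3, and 3 before HERC5 and IFI6. The 6 are examples and do not show how often members that differed carry a core. Other members that passed under an inhibitor had none in a stretch of the same length and are not printed. These were STAT2, which rose under both inhibitors, and DDX58, EIF2AK2, PARP9 and SP100, which fell under both. They also include HERC6 and DTX3L, which fell with JQ1, and IRF9, which rose with I-BET151. EIF2AK2 and DTX3L had a match only in the longer window used below.

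RefSeq promoters were matched for 38 of the 47 genes. IRF7, USP18, IFIT2, IFITM2, OAS2, OASL, MX2, TRIM22 and LY6E had no entry in the table used. In windows from 250 bases before to 50 after the start, an ISRE core was present in 24 of the 38 (63.2%), against 3.65% of all 27305 promoters. A GAS core, TTCNNNGAA, which reads the same on both strands, was present in 11 of the 38 (28.9%), against 7.88% of all promoters. The core was present in 7 of 11 promoters of genes that fell with JQ1, in 2 of 3 of genes that rose and in 12 of 20 of those that did not pass the test. With I-BET151 these counts were 7 of 10, 2 of 4 and 12 of 20. The ISRE core was thus found among genes of every class, and STAT2, which rose, had none in its window. A match is a description of letters and not evidence of binding.

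Expression of the group was dominated by a pair of neighbouring genes in LOUCY and spread more evenly in JURKAT. IFITM1 and IFITM2, small membrane proteins that hinder the entry of enveloped viruses, together made up 84.4 to 85.4% of the group's summed RPKM with JQ1, 78.5 to 87.3% with I-BET151, 87.7 to 91.3% with DMSO and 90.1 to 92.7% in untreated LOUCY. In JURKAT the same pair made up 16.1 to 20.2%. RPKM is scaled to gene length, so levels can be set side by side. The number of the 47 genes with a group mean of at least 1 RPKM was 38 with JQ1, 38 with I-BET151 and 42 in each of the other groups. The median of the 47 group means was 8.49 RPKM in untreated LOUCY and 5.84 in JURKAT, against 4.41 and 4.16 RPKM for all listed genes. OASL, MX1, IFI27 and IFI44L averaged under 1 RPKM in all 5 groups.

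Several members lie side by side on GRCh38 in the GENCODE annotation. Starts here are the outermost annotated ones, and RefSeq starts can differ from them. IFITM2, IFITM1 and IFITM3 lie next to each other on chromosome 11. Between the starts of IFITM2 and IFITM1 are 5.9 kb, and between those of IFITM1 and IFITM3 14.0 kb. For IFITM3 the outermost start is at 327537, while the RefSeq stretch printed above ends at 320861, next to the RefSeq start. The 4 IFIT genes lie on chromosome 10, OAS1, OAS3 and OAS2 on chromosome 12, and MX2 and MX1 on chromosome 21 with starts 58.4 kb apart. DTX3L and PARP9 start 339 bases apart on opposite strands of chromosome 3. Neighbours were not at one level, as MX2 and MX1 show, at 32.9 and 0.728 RPKM in untreated LOUCY. Libraries were not stranded, so reads where exons of different genes overlap cannot be told apart. The longest such overlap was 139 bases for PARP9 and DTX3L, 351 for IFITM1 and IFITM2 on the same strand, and 642 for TRIM22 and OR56B1 on the same strand. On the opposite strand it was 2535 for XAF1 and PRAL and 939 for IRF1 and C5orf56. C5orf56 averaged 10.2 RPKM over all libraries, so the values of IRF1 may include some of its reads. Of the 50-base words of the longest coding transcript, 42.3% in IFITM1, 20.3% in IFITM3, 15.8% in IFITM2, 23.4% in USP18 and 100% in IRF9 also occur in another annotated gene, and the values of these genes are uncertain to that extent. For IRF9 that gene is a read-through transcript.

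**Figure D1:**
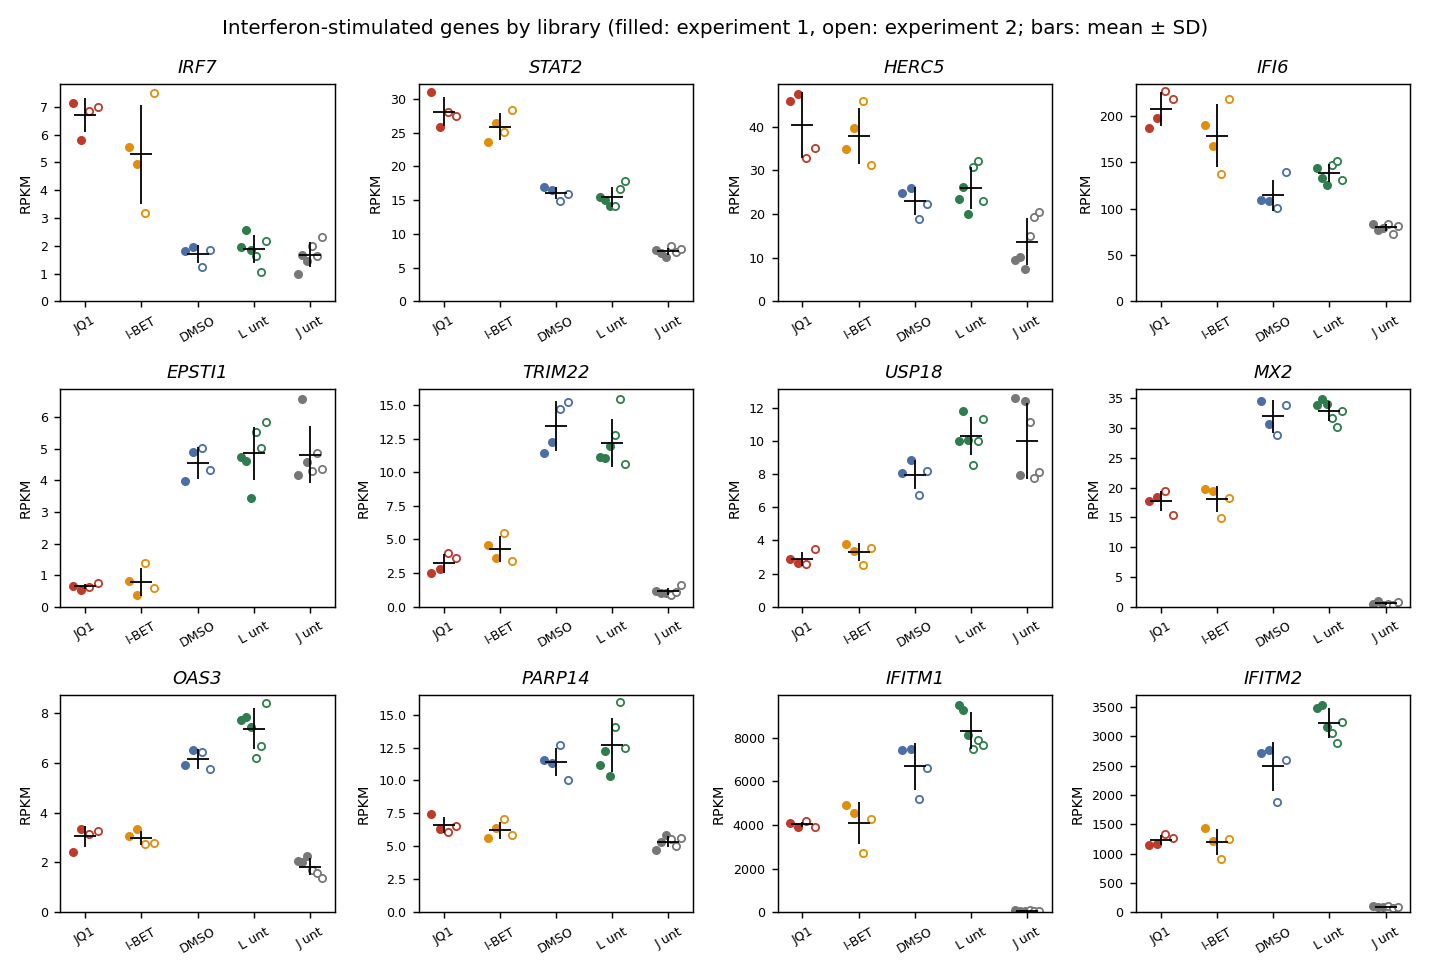
RPKM (vertical axes, linear) of 12 interferon-stimulated genes by library, for LOUCY with JQ1, I-BET151 (I-BET) and DMSO, untreated LOUCY (L unt) and untreated JURKAT (J unt); filled points are experiment 1, open points experiment 2, and bars the mean ± SD. With either inhibitor the upper 4 genes are above DMSO and the other 8 below it, while MX2, IFITM1 and IFITM2 are near the baseline in JURKAT at this scale.

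At rest the group leaned toward LOUCY. Of 43 genes tested, 24 were higher in untreated LOUCY than in JURKAT, 7 were lower and 12 did not pass the test, while 4 (OASL, MX1, IFI27 and IFI44L) were below 1 RPKM in too many libraries to be tested. Among all 11978 genes tested, 73.1% passed in either direction, 35.5% higher and 37.5% lower. The group's share of 72.1% passing was near that background, and its split was 55.8% higher and 16.3% lower. The median difference was 0.39 on the log2(RPKM + 1) scale, against -0.017 for all genes. Differences on this scale understate changes near or below 1 RPKM. The test was limma's moderated test with an experiment term and Benjamini-Hochberg adjustment over all genes, with a threshold of 0.05. In bulk RNA a smaller share of expressing cells and less RNA per cell cannot be told apart.

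The largest differences were in membrane and antiviral effectors. IFITM1 (chr11:313506-315272) was at 7492 to 9509 RPKM with a median of 8007 in untreated LOUCY and at 62.3 to 90.03 RPKM with a median of 68.7 in JURKAT, a difference of 6.81 ± 0.10 (SE, log2 scale, limma adjusted p = 4.23e-17). IFITM2 (chr11:307631-315272) was at 2892 to 3539 RPKM with a median of 3204 in LOUCY and 80.3 to 106 RPKM with a median of 92.3 in JURKAT (5.10 ± 0.075, limma adjusted p = 3.73e-17). The groups were far apart for both genes. MX2, a dynamin-like GTPase that restricts HIV, was at 30.2 to 34.8 RPKM with a median of 33.4 in LOUCY and 0.272 to 0.943 RPKM with a median of 0.498 in JURKAT (4.46 ± 0.10, limma adjusted p = 7.43e-15). It was at 1 RPKM or more in 0 of 6 JURKAT libraries and was tested only through its level in LOUCY.

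BST2, or tetherin, which holds budding virions on the cell surface, had 85.9 ± 14.9 RPKM in LOUCY and 7.67 ± 1.73 RPKM in JURKAT (SD, n = 6 each; 3.34 ± 0.13 log2, limma adjusted p = 4.22e-12). TRIM22, a ubiquitin ligase of the antiviral TRIM family, had 12.2 ± 1.79 and 1.15 ± 0.265 RPKM in LOUCY and JURKAT (2.61 ± 0.11 log2). IFI44 had 38.4 ± 16.4 RPKM in LOUCY, with a highest library of 65.4, and 9.02 ± 1.95 RPKM in JURKAT (1.91 ± 0.16 log2). The lines did not overlap for any of these genes. PLSCR1, a lipid scramblase, was at 28.9 ± 2.92 RPKM in LOUCY and 19.5 ± 1.902 RPKM in JURKAT and also did not overlap (0.55 ± 0.088 log2, limma adjusted p = 4.26e-05). SP100, a nuclear body protein, was higher in LOUCY by 0.58 log2.

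Of the 4 transcription factors 2 were higher in LOUCY, and of the 6 RNA sensing and editing genes 3 were higher and 3 lower. Among all genes tested 35.5% were higher and 37.5% lower. STAT2 had 15.5 ± 1.45 RPKM in LOUCY and 7.41 ± 0.545 RPKM in JURKAT (0.97 ± 0.079 log2, limma adjusted p = 2.27e-08), and IRF9, its DNA-binding partner, had 8.49 ± 1.96 and 4.39 ± 0.953 RPKM (0.81 ± 0.13 log2). IRF1 and IRF7 differed by -0.064 and 0.10 log2 and did not pass. The cytoplasmic RNA sensors DDX58 (RIG-I) and IFIH1 (MDA5) were higher in LOUCY by 0.59 and 0.90 log2, and the RNA-activated kinase EIF2AK2 (PKR) by 1.07. ADAR, which edits double-stranded RNA, and TRIM25, a ligase that assists RIG-I, were lower (-0.25 and -0.33 log2). The call of ADAR was lost in each experiment alone, and that of TRIM25 in experiment 1 alone and with no experiment term. DDX60 differed by -0.26 log2, past the threshold in the fit of all 12 libraries but in 8 of 21 other settings only. Leaving out LOUCY experiment 1 replicate 3, LOUCY experiment 2 replicate 1 or 3, any JURKAT library of experiment 1, or JURKAT experiment 2 replicate 2 or 3 ended its call.

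The IFIT genes, whose products bind foreign RNA ends and block translation, were split. IFIT1, IFIT2 and IFIT3 were higher in LOUCY, at 4.56, 5.94 and 4.82 RPKM, against 1.29, 2.01 and 1.02 RPKM in JURKAT (differences of 1.28, 1.20 and 1.53 log2). Their neighbour IFIT5 was lower, at 6.01 ± 0.846 RPKM in LOUCY and 7.81 ± 0.584 RPKM in JURKAT (-0.34 ± 0.084 log2, limma adjusted p = 0.00217), a call lost in experiment 2 alone. OAS1 and OAS3, which make the oligoadenylates that activate RNase L, were higher in LOUCY by 1.49 and 1.57 log2, whereas OAS2 differed by 0.18 log2 and did not pass.

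The ISG15 system was nearly level in its modifier and differed in a ligase. ISG15, a ubiquitin-like protein, was at 136 to 196 RPKM with a median of 149 in LOUCY and 119 to 159.8 RPKM with a median of 137 in JURKAT (log2 difference 0.16 ± 0.082, 95% interval -0.016 to 0.33), and did not pass. USP18, the protease that removes ISG15 and also damps receptor signalling, had 10.3 ± 1.15 RPKM in LOUCY and 9.98 ± 2.31 RPKM in JURKAT and did not pass. HERC5, the ligase that attaches ISG15, was higher in LOUCY at 25.95 ± 4.73 RPKM, against 13.7 ± 5.45 RPKM in JURKAT (0.95 ± 0.14 log2, limma adjusted p = 2.07e-05), although single libraries overlapped. HERC6 differed by 0.35 log2 and kept its call in 9 of 22 other settings. Leaving out replicate 1 of experiment 1 of either line, or any library of experiment 2, ended it.

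PARP14 and DTX3L, parts of an ADP-ribosylation and ubiquitin complex, were higher in LOUCY by 1.10 and 0.39 log2, and PARP9 differed by -0.0085 and did not pass. IFI6, a mitochondrial and endoplasmic reticulum protein with anti-apoptotic action, had 139 ± 10.01 RPKM in LOUCY and 79.7 ± 3.89 RPKM in JURKAT (0.79 ± 0.067 log2). IFI35 was higher by 0.35 log2, a call lost in each experiment alone and with voom on the recovered reads. IFI16, a nuclear DNA sensor, had 219 ± 57.4 and 199 ± 27.1 RPKM and did not pass. LGALS3BP had 65.9 ± 6.82 RPKM in LOUCY and 62.7 ± 6.28 in JURKAT, and LY6E had 25.1 ± 2.59 and 27.1 ± 5.39 RPKM, with overlapping libraries. Neither passed, nor did EPSTI1, SAMD9 and SAMD9L. SAMD9 (limma adjusted p = 0.0565) did pass in 6 of 22 other settings, and SAMD9L in experiment 1 alone.

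Of the members lower in LOUCY, XAF1 and IFITM3 stood out in size. XAF1, a pro-apoptotic antagonist of XIAP, was at 0 to 0.314 RPKM with a median of 0.0763 in LOUCY and 20.02 to 26.2 RPKM with a median of 21.1 in JURKAT (-4.39 ± 0.10 log2, limma adjusted p = 4.68e-15). It reached 1 RPKM in 0 of 18 LOUCY libraries and was tested only through its level in JURKAT. IFITM3, which lies next to IFITM1, was at 3.22 to 4.94 RPKM with a median of 4.46 in LOUCY and 12.9 to 16.3 RPKM with a median of 15.03 in JURKAT (-1.58 ± 0.10 log2, limma adjusted p = 9.1e-10), with no overlap. Within one gene cluster the difference thus ran both ways. ISG20, an exonuclease for single-stranded RNA, was also lower (-0.32 log2), a call lost in experiment 2 alone. Called members numbered 24 higher and 5 lower in experiment 1 alone, and 24 higher and 3 lower in experiment 2 alone. Of all 11978 genes, 7976 and 7079 passed in these fits, against 8752 with both experiments.

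**Figure D2:**
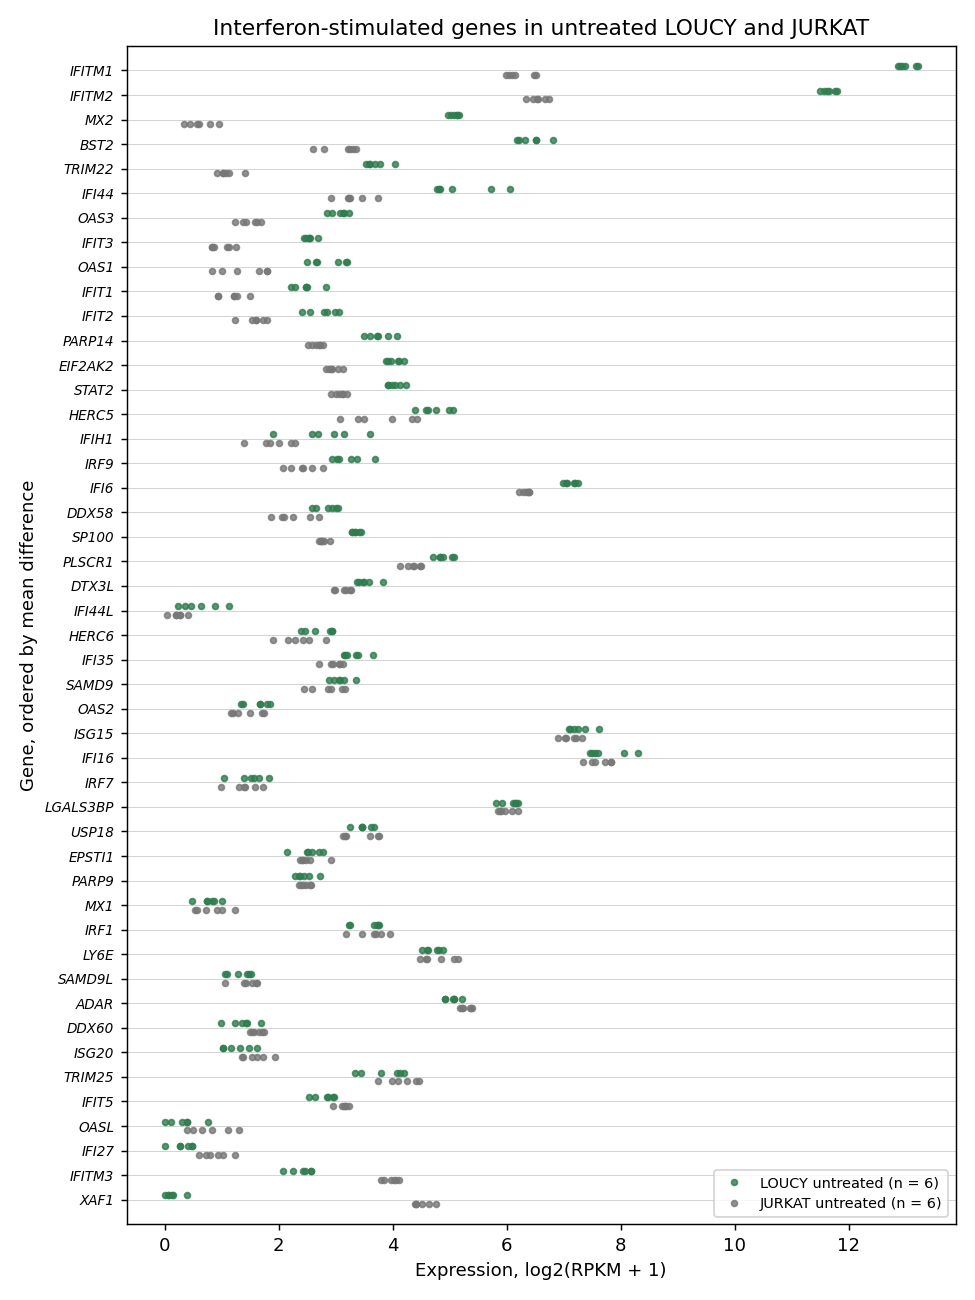
Expression of the 47 genes on the log2(RPKM + 1) scale (horizontal axis) in each of 6 untreated LOUCY (green) and 6 untreated JURKAT (grey) libraries, with genes ordered by the mean difference. IFITM1 at the top is apart by 6.81 log2 units toward LOUCY and XAF1 at the bottom has a difference of -4.39.

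The solvent was compared with no treatment as the background for the inhibitors. Of 42 members tested, 0 passed in DMSO against untreated LOUCY with limma, and 8 had an unadjusted p under 0.05. Among all 11411 genes, 20 passed (0.175%), with 0.0263% higher and 0.149% lower. At the unadjusted level 1100 genes had a p under 0.05. The culture time of untreated cells is not stated, so time and solvent cannot be told apart. LY6E, a lipid-anchored surface protein, was at 20.6, 15.3, 8.5 and 17.5 RPKM with DMSO and at 21.9 to 28.5 RPKM with a median of 25.04 in untreated LOUCY (-0.72 ± 0.18 log2, limma adjusted p = 0.116). IFITM2 was at 2717, 2776, 1873 and 2598 RPKM with DMSO and 2892 to 3539 RPKM in untreated cells (-0.39 ± 0.12 log2, limma adjusted p = 0.201). The groups did not overlap for either gene, yet neither passed over all genes.

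Under BET inhibition a larger share of the group fell than of all genes, while the share that rose was near that of all genes. With JQ1, 17 of 42 members tested were lower than with DMSO, 4 were higher and 21 did not pass. That is 40.5% lower and 9.52% higher, against 15.9% and 10.1% of all 11411 genes, of which 26.0% passed in either direction. With I-BET151, 16 were lower, 5 higher and 21 did not pass. That is 38.1% lower and 11.9% higher, against 15.9% and 10.3% of all genes, of which 26.3% passed. The median log2 difference over members was -0.30 with JQ1 and -0.26 with I-BET151, against -0.010 and 0.0004 over all genes. Both comparisons share the DMSO libraries and are not independent, and the doses differ.

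The 5 members below the filter in LOUCY were OASL, MX1, IFI27, IFI44L and XAF1. EPSTI1 and ISG20 reached 1 RPKM in 0 of 4 JQ1 libraries, and ISG20 and OAS2 in 0 of 4 I-BET151 libraries, so these 3 were tested through the DMSO and untreated libraries. In experiment 1 alone 4 members were higher and 16 lower with JQ1, and 5 and 15 with I-BET151. In experiment 2 alone 1 was higher and 3 lower with JQ1, and 0 and 6 with I-BET151. Calls among all 11411 genes also numbered fewer in experiment 2 alone. They were 392 with JQ1 and 454 with I-BET151, against 3455 and 2807 in experiment 1 alone. Experiment 2 holds the DMSO and I-BET151 libraries of steep GC trend. In limma's test of the difference in response between the experiments, with 2 libraries a group in each, 1 of 11411 genes and 0 of 42 members passed in either comparison. An unadjusted p under 0.05 was found for 0 members and 398 genes with JQ1, and for 0 members and 312 genes with I-BET151. With so few calls over all genes, the count of 0 does not show that the members responded alike in both experiments.

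Of the signalling genes, IRF7, a master regulator of type I interferon genes, rose most. IRF7 (chr11:612553-615999) was at 7.14, 5.79, 6.85 and 7.001 RPKM with JQ1 and at 5.56, 4.94, 3.18 and 7.52 RPKM with I-BET151, against 1.82, 1.95, 1.22 and 1.83 RPKM with DMSO. All treated libraries were above all solvent libraries. The log2 differences were 1.51 ± 0.18 with JQ1 (SE, limma adjusted p = 6.52e-06) and 1.18 ± 0.18 with I-BET151 (limma adjusted p = 0.000106). STAT2 was at 31.03, 25.9, 28.1 and 27.5 RPKM with JQ1 and 23.6, 26.5, 25.1 and 28.3 RPKM with I-BET151, against 16.9, 16.5, 14.9 and 15.8 RPKM with DMSO. It also showed no overlap, with differences of 0.77 ± 0.10 and 0.66 ± 0.10 log2 (limma adjusted p = 1.37e-05 and 8.98e-05). IRF9 was at 10.1, 10.9, 12.3 and 12.96 RPKM with JQ1 and 12.8, 12.6, 10.8 and 13.5 RPKM with I-BET151, against 8.66, 10.3, 8.62 and 9.57 RPKM with DMSO. It passed with I-BET151 (0.38 ± 0.13 log2, limma adjusted p = 0.0403) and not with JQ1 (0.29 ± 0.13 log2), and its call held in 8 of 18 other settings. Leaving out DMSO experiment 1 replicate 1, either DMSO library of experiment 2, either I-BET151 library of experiment 1 or I-BET151 experiment 2 replicate 2 ended it. IRF1 differed by 0.070 log2 with JQ1 and -0.20 with I-BET151 and did not pass.

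Of the RNA sensing genes, DDX58 and EIF2AK2 fell. DDX58 was at 3.56, 4.97, 3.69 and 4.26 RPKM with JQ1 and 4.31, 4.03, 4.24 and 3.47 RPKM with I-BET151, against 5.81, 5.18, 9.88 and 5.62 RPKM with DMSO. The differences were -0.54 ± 0.16 and -0.57 ± 0.16 log2 (limma adjusted p = 0.019 and 0.0145), and the highest solvent library is one of the steep GC libraries. The JQ1 call was lost without that library, without replicate 1 of JQ1 in either experiment, and in each experiment alone, and the I-BET151 call in each experiment alone. EIF2AK2 was at 12.9, 11.8, 9.11 and 10.2 RPKM with JQ1 and 11.5, 10.4, 13.8 and 7.78 RPKM with I-BET151, against 15.9, 17.7, 22.6 and 12.8 RPKM with DMSO. Its groups overlapped by single libraries, and it passed with both (-0.59 ± 0.16 and -0.62 ± 0.16 log2). IFIH1, DDX60, ADAR and TRIM25 did not pass, with differences from -0.41 to -0.088 log2 with JQ1 and -0.37 to -0.072 with I-BET151.

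Within the ISG15 system the ligase HERC5 rose while the protease USP18 fell. HERC5 was at 45.99, 47.7, 32.8 and 35.2 RPKM with JQ1 and 34.8, 39.7, 45.97 and 31.2 RPKM with I-BET151, against 24.9, 25.9, 18.8 and 22.2 RPKM with DMSO. No treated library overlapped a solvent library (0.78 ± 0.16 and 0.69 ± 0.16 log2, limma adjusted p = 0.00164 and 0.00415). USP18 was at 2.87, 2.64, 2.57 and 3.49 RPKM with JQ1 and 3.78, 3.36, 2.54 and 3.54 RPKM with I-BET151, against 8.05, 8.86, 6.75 and 8.17 RPKM with DMSO. It was lower in all treated libraries (-1.20 ± 0.12 and -1.06 ± 0.12 log2, limma adjusted p = 9.98e-07 and 4.75e-06). HERC6, related to HERC5 and its neighbour on chromosome 4, was at 2.7, 2.17, 3.46 and 2.77 RPKM with JQ1 and 2.16, 4.22, 6.78 and 2.49 RPKM with I-BET151, against 5.27, 5.04, 7.02 and 4.99 RPKM with DMSO. It passed with JQ1 (-0.80 ± 0.20 log2) and not with I-BET151 (-0.50 ± 0.20 log2, limma adjusted p = 0.0656), where 1 library was within the solvent range. HERC6 did pass with I-BET151 in 4 of 18 other settings, among them leaving out that library or all libraries of steep GC trend. ISG15 itself was at 123, 102, 111 and 118 RPKM with JQ1 and 121, 107, 70.3 and 104 RPKM with I-BET151, against 146, 159, 107 and 156 RPKM with DMSO. It passed with I-BET151 (-0.51 ± 0.14 log2) and not with JQ1 (-0.31 ± 0.14 log2), and single libraries overlapped in both. ISG15 did pass with JQ1 in 3 of 18 other settings. These were experiment 1 alone, leaving out the libraries of steep GC trend, and leaving out DMSO experiment 2 replicate 1.

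The antiviral families behaved differently from one another. All 4 IFIT genes failed to pass with either inhibitor, with differences of -0.15 to 0.25 log2 with JQ1 and -0.21 to 0.27 with I-BET151. Of the IFITM genes, IFITM1 was at 4078, 3906, 4193 and 3925 RPKM with JQ1 and 4909, 4551, 2707 and 4269 RPKM with I-BET151, against 7425, 7509, 5182 and 6629 RPKM with DMSO. IFITM2 was at 1147, 1165, 1332 and 1260 RPKM with JQ1 and 1434, 1210, 902 and 1251 RPKM with I-BET151, against 2717, 2776, 1873 and 2598 RPKM with DMSO. Both fell without overlap, with differences of -0.72 ± 0.13 and -0.72 ± 0.13 log2 for IFITM1 and -1.01 ± 0.13 and -1.06 ± 0.13 log2 for IFITM2 (limma adjusted p = 0.000378, 0.000365, 8.95e-06 and 5.78e-06). They stayed the most abundant members, far above the JURKAT levels. IFITM3, at 2.55, 2.58 and 2.88 RPKM with JQ1, I-BET151 and DMSO, did not pass.

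Of the OAS genes, OAS3 was at 2.43, 3.33, 3.15 and 3.28 RPKM with JQ1 and 3.06, 3.33, 2.72 and 2.76 RPKM with I-BET151, against 5.89, 6.51, 6.43 and 5.74 RPKM with DMSO. The groups did not overlap (-0.82 ± 0.11 and -0.85 ± 0.11 log2, limma adjusted p = 2.5e-05 and 2.07e-05). OAS2 was at 0.946, 1.06, 1.27 and 0.628 RPKM with JQ1 and 0.979, 0.602, 0.503 and 0.801 RPKM with I-BET151, against 1.59, 1.95, 2.27 and 2.85 RPKM with DMSO, and passed with both (-0.68 ± 0.15 and -0.87 ± 0.15 log2), though the JQ1 call was lost in each experiment alone. OAS1 differed by -0.34 and -0.47 log2 and did not pass. MX2 was at 17.7, 18.4, 19.4 and 15.4 RPKM with JQ1 and 19.7, 19.4, 14.9 and 18.2 RPKM with I-BET151, against 34.6, 30.7, 28.8 and 33.8 RPKM with DMSO. It fell with both, without overlap (-0.82 ± 0.10 and -0.79 ± 0.10 log2, limma adjusted p = 6.29e-06 and 9.61e-06).

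Of the 6 genes named IFI, 4 were tested, and with each inhibitor 1 rose and 0 fell. That share is near the 26.0% and 26.3% of all genes that passed. IFI6 was at 187, 198, 227 and 218 RPKM with JQ1 and 191, 168, 138 and 218 RPKM with I-BET151, against 109, 108, 101 and 139 RPKM with DMSO. JQ1 and solvent libraries did not overlap, and 1 library of I-BET151 was just under the highest with DMSO (0.86 ± 0.13 and 0.63 ± 0.13 log2, limma adjusted p = 5.01e-05 and 0.00109). IFI16, IFI35 and IFI44 did not pass. IFI44 is known as an interferon-induced cytoplasmic protein, and its I-BET151 libraries ran from 16.6 to 65.95 RPKM, with the highest in the library of steepest GC trend.

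Of the PARP9, DTX3L and PARP14 group, PARP14, an ADP-ribosyltransferase, was at 7.44, 6.302, 6.05 and 6.54 RPKM with JQ1 and 5.65, 6.37, 7.08 and 5.83 RPKM with I-BET151, against 11.6, 11.3, 12.7 and 10.1 RPKM with DMSO. No libraries overlapped (-0.71 ± 0.12 and -0.78 ± 0.12 log2, limma adjusted p = 0.000275 and 0.000116). PARP9 was at 4.12, 2.38, 2.901 and 3.73 RPKM with JQ1 and 3.58, 3.36, 2.83 and 3.51 RPKM with I-BET151, against 5.34, 4.98, 4.51 and 4.495 RPKM with DMSO. It passed with both (-0.46 ± 0.13 and -0.43 ± 0.13 log2, limma adjusted p = 0.0145 and 0.0205). The I-BET151 call was lost on leaving out DMSO experiment 1 replicate 1, I-BET151 experiment 1 replicate 2 or I-BET151 experiment 2 replicate 1, and the JQ1 call on leaving out JQ1 experiment 1 replicate 2, and both were lost in each experiment alone. DTX3L, a ubiquitin ligase that pairs with PARP9, was at 6.91, 7.29, 8.28 and 10.8 RPKM with JQ1 and 9.67, 9.8, 11.5 and 9.86 RPKM with I-BET151, against 9.48, 12.1, 11.4 and 10.4 RPKM with DMSO. It passed with JQ1 only just (-0.36 ± 0.12 log2, limma adjusted p = 0.0389) and lost the call in 12 of 18 other settings. These include leaving out DMSO or JQ1 replicate 1 of either experiment, or DMSO or JQ1 replicate 2 of experiment 1.

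On the log2(RPKM + 1) scale the falls of TRIM22 and EPSTI1 were the largest among members. By the ratio of group means ISG20, a gene near 1 RPKM with DMSO, was lower than TRIM22 with I-BET151 (ratios of 0.285 and 0.3195). TRIM22 (chr11:5689689-5737089) was at 2.52, 2.795, 3.99 and 3.62 RPKM with JQ1 and 4.62, 3.61, 5.52 and 3.399 RPKM with I-BET151, against 11.5, 12.2, 14.7 and 15.2 RPKM with DMSO. EPSTI1 (chr13:42886388-42992271), known as an epithelial-stromal interaction gene induced by interferon, was at 0.668, 0.5399, 0.641 and 0.7401 RPKM with JQ1 and 0.8, 0.367, 1.399 and 0.579 RPKM with I-BET151, against 3.97, 4.91, 5.03 and 4.32 RPKM with DMSO. Neither gene showed overlap. The differences of TRIM22 were -1.77 ± 0.13 and -1.46 ± 0.13 log2 (limma adjusted p = 2.35e-08 and 2.47e-07) and those of EPSTI1 -1.75 ± 0.14 and -1.67 ± 0.14 log2 (limma adjusted p = 6.1e-08 and 1.03e-07). Both calls held in all 18 other settings, each experiment alone included. The ISRE core of EPSTI1 begins 50 bases before the start.

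Of the other effectors, 3 more fell with both inhibitors. ISG20 was at 0.2003, 0.247, 0.336 and 0.222 RPKM with JQ1 and 0.141, 0.252, 0.399 and 0.371 RPKM with I-BET151, against 1.11, 1.05, 0.922 and 1.01 RPKM with DMSO. It was low throughout, and all treated libraries lay below the solvent (-0.69 ± 0.12 and -0.65 ± 0.12 log2, limma adjusted p = 0.000253 and 0.000465). LY6E was at 7.36, 7.59, 6.51 and 7.23 RPKM with JQ1 and 12.4, 9.396, 5.199 and 8.58 RPKM with I-BET151, against 20.6, 15.3, 8.5 and 17.5 RPKM with DMSO. The I-BET151 and DMSO libraries overlapped, and the lowest of each was its steep GC library (-0.95 ± 0.20 and -0.72 ± 0.20 log2, limma adjusted p = 0.00139 and 0.0104). SP100 was at 6.43, 6.28, 6.73 and 6.22 RPKM with JQ1 and 6.94, 6.67, 8.71 and 6.63 RPKM with I-BET151, against 9.29, 8.47, 11.4 and 8.38 RPKM with DMSO. Its call with I-BET151 (-0.33 ± 0.11 log2, limma adjusted p = 0.0265) was lost on leaving out DMSO replicate 1 of either experiment, either I-BET151 library of experiment 1 or I-BET151 experiment 2 replicate 2. With JQ1 (-0.48 ± 0.11 log2) it held without any single library. BST2, PLSCR1, LGALS3BP, SAMD9 and SAMD9L did not pass, with differences from -0.29 to -0.0039 log2 with JQ1 and -0.32 to 0.079 with I-BET151. With JQ1, BST2 did pass in experiment 1 alone, without the libraries of steep GC trend and without DMSO experiment 2 replicate 1. LGALS3BP passed with JQ1 without the libraries of steep GC trend, and with I-BET151 without DMSO experiment 2 replicate 1.

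**Figure D3:**
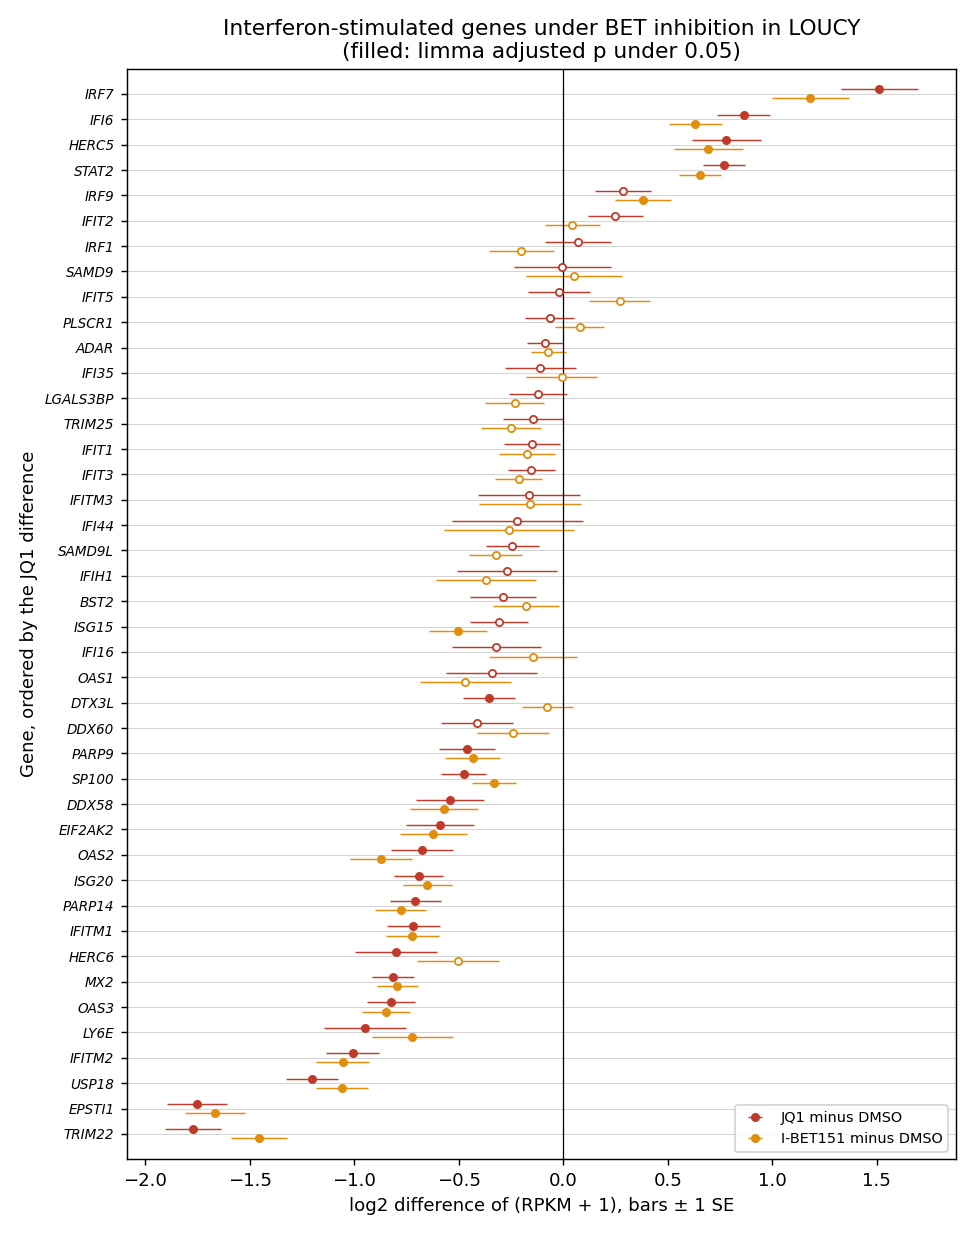
Log2 difference from DMSO on the (RPKM + 1) scale (horizontal axis, bars ± 1 SE) of the 42 tested genes with JQ1 (red, above) and I-BET151 (orange, below), ordered by the JQ1 difference; filled points passed limma's adjusted p of 0.05. IRF7 at the top is at 1.51 and 1.18, and TRIM22 at the bottom at -1.77 and -1.46.

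Set directly against each other, 250 nM JQ1 and 500 nM I-BET151 gave 0 calls among the 42 members and 0 among all 11411 genes with limma. Unadjusted p-values under 0.05 numbered 2 and 531, and a voom fit to the recovered reads also gave 0 calls. Those 2 members were TRIM22 (-0.32 ± 0.13 log2, 95% interval -0.60 to -0.036) and DTX3L (-0.28 ± 0.12 log2, 95% interval -0.54 to -0.022). For IRF7 the interval of JQ1 minus I-BET151 was -0.055 to 0.72 log2, for IFITM1 -0.26 to 0.27 and for HERC6 -0.71 to 0.12. These widths do not show that the compounds act alike, and because the doses differ nothing follows about potency.

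Further interferon genes were examined in lists of ligands, receptors, signalling factors, negative regulators, sensors and 57 other interferon-stimulated genes. Of the 123 genes listed, 93 were in the table. In untreated LOUCY against JURKAT 51 were higher and 22 lower of 86 tested, beside 73.1% of all genes passing. With JQ1 11 were higher and 22 lower of 87 tested, with I-BET151 8 and 25, and in DMSO against untreated cells 0 passed. Against the background of 26.0% and 26.3%, 33 of 87 passed under each inhibitor.

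Of 21 interferon genes listed, 1 was analysed here, IFNL1, which encodes a type III interferon. IFNL1 was at 0.227, 0, 0 and 0.252 RPKM with JQ1 and 0.214, 0.229, 0 and 0 RPKM with I-BET151, against 1.196, 0.906, 0.697 and 2.18 RPKM with DMSO. These values stand for 0 to 1 reads per treated library and 4 to 10 per solvent library, so IFNL1 was close to the limit of detection. It reached 1 RPKM in 0 of 4 libraries with either inhibitor and entered the test only through 2 DMSO and 2 untreated libraries, so its values are given without the test, although the counts over the lists include it. In untreated LOUCY it had 2 to 12 reads, and in JURKAT 0 to 1.

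Of 6 receptor genes, 2 rose and 2 fell with JQ1, and 1 rose and 1 fell with I-BET151, beside 26.0% and 26.3% of all genes passing. IFNGR1, the ligand-binding chain for interferon gamma, averaged 31.3 ± 0.666 RPKM with JQ1 and 33.6 ± 2.34 with I-BET151, against 21.7 ± 6.07 RPKM with DMSO (SD, n = 4 each), and rose with both (0.54 ± 0.14 and 0.64 ± 0.14 log2). IL10RB, the shared chain of the type III receptor, rose with JQ1 (0.54 ± 0.12 log2, limma adjusted p = 0.00252). IFNGR2, the second chain for interferon gamma, fell with both (-0.49 ± 0.16 and -0.47 ± 0.16 log2), and IFNLR1, the specific chain for type III interferon, fell with JQ1 (-0.44 ± 0.15 log2). IFNLR1 reached 1 RPKM in 0 of 4 libraries with either inhibitor and was tested only through the DMSO and untreated libraries. Between the lines, IFNAR2 and IFNGR2 were higher in LOUCY by 0.48 and 0.50 log2, and IL10RB and IFNGR1 were lower (-1.75 and -0.67 log2).

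Of 10 genes for kinases, STATs and other IRF factors, 8 were tested under the inhibitors, and with each 2 fell while 0 rose, a share near the 26.0% and 26.3% of all genes that passed. IRF5, a factor in inflammatory cytokine induction, averaged 12.6 ± 1.56 RPKM with JQ1 and 10.7 ± 2.87 with I-BET151, against 25.6 ± 5.94 RPKM with DMSO (-0.94 ± 0.21 and -1.18 ± 0.21 log2). In untreated LOUCY it had 27.1 ± 6.17 RPKM, against 0.117 ± 0.0695 RPKM in JURKAT. IRF2, an antagonist of IRF1, also fell (-0.31 and -0.34 log2). IRF2 and IRF5 were higher in LOUCY than in JURKAT (1.51 and 4.62 log2), and IRF8 and IRF3 lower (-1.18 and -0.32). IRF5 was at 1 RPKM or more in 0 of 6 JURKAT libraries and IRF8 in 1 of 6 LOUCY libraries, so each was tested only through the line where it is high.

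Of the negative regulators, NLRC5, which also drives MHC class I genes, averaged 5.65 ± 0.347 RPKM with JQ1 and 5.05 ± 0.868 with I-BET151, against 15.1 ± 2.35 RPKM with DMSO (-1.26 ± 0.14 and -1.41 ± 0.14 log2, limma adjusted p = 1.66e-06 and 4.52e-07). In all, 3 of 9 fell and 1 rose with each inhibitor, beside 15.9% of all genes falling with each and 10.1% and 10.3% rising. IRF2BP2, a co-repressor, fell (-1.17 and -0.87 log2), and IRF2BP1 rose by 0.63 and 0.60. NLRC5 and the phosphatase PTPN6 were higher in LOUCY than in JURKAT, by 2.71 and 1.08 log2, and PTPN2 was lower (-0.93 log2).

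Of the nucleic acid sensing genes, 3 of 14 fell with JQ1 and 4 with I-BET151, and 0 rose, beside 26.0% and 26.3% of all genes passing in either direction and 15.9% falling with each. TLR3, an endosomal receptor for double-stranded RNA, was at 0.767, 1.26, 1.66 and 1.91 RPKM with JQ1 and 1.87, 1.99, 2.49 and 1.69 RPKM with I-BET151, against 4.72, 4.34, 7.07 and 4.299 RPKM with DMSO. It did not overlap (-1.35 ± 0.16 and -1.004 ± 0.16 log2, limma adjusted p = 6.6e-06 and 0.000172), and the adaptor TRAF3 fell as well (-0.61 and -0.57 log2). Between the lines, TMEM173 (STING), the adaptor of cytosolic DNA sensing, had 90.9 ± 10.4 RPKM in untreated LOUCY and 2.14 ± 0.822 RPKM in JURKAT (4.90 ± 0.15 log2). MB21D1 (cGAS), the DNA sensor upstream of STING, had 4.99 ± 1.1 RPKM in LOUCY and 0.179 ± 0.182 RPKM in JURKAT (2.34 ± 0.13 log2). It reached 1 RPKM in 0 of 6 JURKAT libraries and was tested only through its level in LOUCY. TRAF3 and MAVS, the adaptor of RIG-I and MDA5, were lower in LOUCY (-0.88 and -0.56 log2).

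Among 49 other interferon-stimulated genes tested, 8 rose and 11 fell with JQ1, and 6 rose and 14 fell with I-BET151. Among all genes 10.1% rose and 15.9% fell with JQ1, and 10.3% rose and 15.9% fell with I-BET151. LGALS9, or galectin-9, fell most by p, to 3.91 ± 1.095 RPKM with JQ1 and 4.401 ± 0.935 with I-BET151, against 26.1 ± 5.498 RPKM with DMSO (-2.47 ± 0.18 and -2.32 ± 0.18 log2). CMPK2, a mitochondrial nucleotide kinase, fell (-1.56 log2 with JQ1 and -1.12 with I-BET151), as did TRIM14, an adaptor in RNA sensing (-0.84 and -1.16 log2). GBP5, a guanylate-binding protein, rose to 29.9 ± 1.64 RPKM with JQ1 and 28.8 ± 2.302 with I-BET151, against 15.7 ± 1.46 RPKM with DMSO (0.89 ± 0.10 and 0.84 ± 0.10 log2, limma adjusted p = 2.13e-06 and 4.74e-06). B2M, the light chain of MHC class I, rose by 0.51 and 0.60 log2.

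Between the lines 31 of these 49 were higher in LOUCY and 10 lower, beside 35.5% higher and 37.5% lower of all genes. APOBEC3B and APOBEC3G, DNA cytidine deaminases that restrict retroviruses, had 84.8 ± 2.804 and 123 ± 16.6 RPKM in LOUCY. In JURKAT APOBEC3B had 0 to 3 reads and APOBEC3G 0 to 9 reads per library. SLFN5 and TRIM14 were lower in LOUCY (-2.22 and -0.98 log2), where SLFN5 reached 1 RPKM in 0 of 6 libraries and was tested only through JURKAT.

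**Figure D4:**
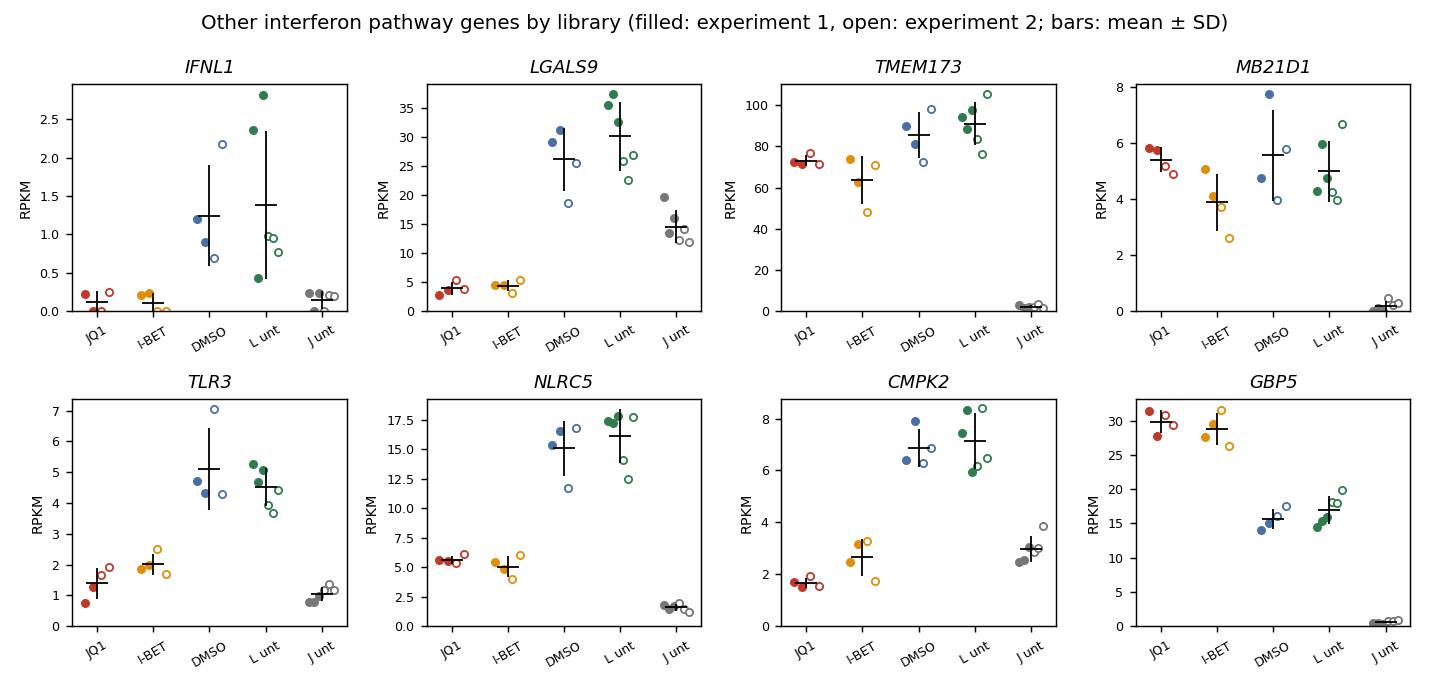
RPKM (vertical axes, linear) of 8 other interferon pathway genes by library, for LOUCY with JQ1, I-BET151 (I-BET) and DMSO, untreated LOUCY (L unt) and untreated JURKAT (J unt); filled points are experiment 1, open points experiment 2, and bars the mean ± SD. With either inhibitor TLR3, NLRC5 and CMPK2 are below DMSO and GBP5 is above it, while TMEM173, MB21D1 and GBP5 are near 0 in JURKAT at this scale.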

How the data were processed

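RNA was sequenced from 24 libraries, made by the Smart-seq2 and Nextera XT methods per the labels' protocols, which do not mark the strand. The deposited table gives, for 15862 genes, RPKM values made by the authors. STAR 2.5.1b, Subread 1.4.5-p1, featureCounts and edgeR 3.10.5 were used on build hg38, per the submitters' processing notes. Annotation, gene lengths and settings were not given in the sources used here. In 100% of genes the values were whole steps of a single read (tolerance 0.01 reads), which gave the reads per library. Every replicate pair of an experiment differed beyond counting error (chi-square per degree of freedom 1.64 to 46.7 over 18 pairs), so each library was counted once.

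Values were tested as log2(RPKM + 1), pseudocount 1, in genes that reached 1 RPKM in 4 or more of the fitted libraries, with limma 3.58.1 in R 4.3.3. The model had an experiment term and trended empirical Bayes moderation. Tests were two-sided, with Benjamini-Hochberg adjustment over all genes. Untreated lines shared a fit of 12 libraries and LOUCY groups a fit of 18. The fits were tested on simulated data. RPKM values are relative amounts, so they do not show changes in total RNA, and the precision of a value is set by its reads.

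The members, the pathway lists and the markers were chosen with earlier results of these data known. Some genes of these lists are not reported here. Members past the threshold under an inhibitor were given in full. For the line comparison, the rule took the 3 largest differences each way and members above 20 RPKM. For each pathway list, it took up to 2 genes in each direction by adjusted p, and HEXIM1 and MYCN were a check of BET inhibition. MYCN averaged 3.19 RPKM with JQ1 and 3.97 with I-BET151, against 12.4 with DMSO. Alternatives were a pseudocount of 0.1, no filter or one of 5 RPKM, median log2 ratio scaling, a replicate block, no experiment term, each experiment alone, leaving out 3 libraries of steep GC trend, limma's voom on recovered reads, and leaving out each library.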

Additional observations from a re-analysis of the deposited data

Results flagged for a closer look

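In each member and group the highest and lowest library were compared with the rest by Dixon's test at 95%, which chance meets about 1 time in 20. Of 235 such sets 12 (5.11%) were met, close to that share. Of the 12, 4 fell in I-BET151 experiment 2 replicate 1 and 3 in DMSO experiment 2 replicate 1, both libraries of steep GC trend. The part of GC content in these values was not tested.

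In that I-BET151 library IFI44 was at 65.95 RPKM, against 16.6 to 22.6 in the other 3, and IFIT5 at 12.4, against 7.20 to 7.66. In the same library DTX3L was at 11.5 RPKM, against 9.67 to 9.86, and SP100 at 8.71, against 6.63 to 6.94. In that DMSO library DDX58 was at 9.88 RPKM, against 5.18 to 5.81, and HERC6 at 7.02, against 4.99 to 5.27. IFI35 was low there, at 5.49 RPKM, against 8.53 to 9.11.

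The rest fell in other libraries. IFIH1 was at 6.32 RPKM in DMSO experiment 1 replicate 1, against 4.25 to 4.60, and TRIM25 at 17.4 in DMSO experiment 1 replicate 2, against 15.1 to 15.4. IFIT2 was low in I-BET151 experiment 1 replicate 1, at 5.97 RPKM, against 7.27 to 7.44. XAF1 was at 0.314 RPKM in untreated LOUCY experiment 2 replicate 2, also a library of steep GC trend, against 0 to 0.101. EPSTI1 was at 6.58 RPKM in JURKAT experiment 1 replicate 2, against 4.16 to 4.88.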

How the results depend on the processing

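Of 4018 member values recomputed under other settings, 3886 kept their side of the threshold, and those that stayed called kept their direction. Values called in neither fit were counted as kept whatever their direction. Of the rest, 106 lost the call, 26 gained one and 0 reversed a called direction. The total includes DMSO against untreated cells and JQ1 against I-BET151, where 0 members were called, so it does not measure how stable the calls were. All 106 losses come from the 31 calls between the lines and the 21 with each inhibitor. Members removed by the filter of 5 RPKM were not counted under it. Experiment 2 alone has 2 libraries a group under treatment and 3 of each line. There JQ1 gave 1 member higher, 3 lower and 392 genes, and I-BET151 gave 0 higher, 6 lower and 454 genes. LOUCY against JURKAT gave 24 members higher, 3 lower and 7079 genes. In experiment 1 alone JQ1 gave 3455 genes and I-BET151 2807. The cause of this difference was not tested. Genes passing between DMSO and untreated LOUCY numbered 57 in experiment 1 alone, 0 in experiment 2 alone, 13 with no experiment term, 34 without the 3 libraries of steep GC trend, 7 with voom, and 12 to 26 on leaving out 1 library. JQ1 against I-BET151 gave 1 gene in experiment 1 alone and 1 without the steep GC libraries. Leaving out each library in turn kept 29 of 31 member calls between the lines, 18 of 21 with JQ1 and 18 of 21 with I-BET151. Members numbered 23 to 25 higher and 6 to 7 lower between the lines, 4 higher and 15 to 18 lower with JQ1, and 4 to 5 higher and 14 to 17 lower with I-BET151.

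Replicate numbers showed no steady pairing of the libraries. Same-numbered libraries of an experiment gave 42 pairs with correlations of -0.58 to 0.68, of which 15 were above 0.1. Between treated groups, with 2 libraries an experiment, both replicate numbers give the same correlation, so the 42 are not all separate values. With a replicate block 23 members were higher and 6 lower in LOUCY against JURKAT (8565 genes in all), 4 higher and 16 lower with JQ1 (2836 genes), 5 higher and 16 lower with I-BET151 (2883 genes), 0 members and 4 genes passed between DMSO and untreated cells, and 0 between the inhibitors. Low members rest on few reads, so differences near or below 1 RPKM are the least certain at this depth. ISG20, near 1 RPKM with DMSO, still passed with both inhibitors.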
